A study of Homo sapiens with 7 samples.

Results

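The transcripts of 6 genes that restrain the cell cycle or respond to the tumour suppressor p53 were followed in human embryonic stem cells given different lipid supplements: CDKN1A, SFN and CDKN2B, which slow or stop division, BAX, which promotes apoptosis, and SESN1 and GDF15, which are induced by cellular stress. The genes, chosen with earlier results of these data known, were taken by symbol from the platform annotation, which assigned 11 of the 33866 probes to them. All 6 were among the 7982 named genes with signal above background on at least 1 array. The cells were the established line H1, kept on matrigel in E8, a defined medium without albumin, and grown for 2 days in E8 or in E8 with 1.6% AlbuMAX (a lipid-rich bovine albumin preparation), 1% albumin, 1% CDL (chemically defined lipid concentrate), hCDL (a homemade version of that mixture), 1 μM LPA (lysophosphatidic acid with an 18:1 acyl chain), or 1 μM LPA together with 1% albumin. For hCDL the strength was given as 0.1x in the treatment label and as 0.01% in the sample title. In all media the ROCK inhibitor Y27632 had been present at 5 μM for the 24 hours after passage. A single Illumina bead array was run for each of the 7 media, and the spread between cultures of a medium was not measured.

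The transcription factor p53 is stabilised by DNA damage and other stresses and switches on genes that halt division, repair DNA or trigger cell death. CDKN1A (p21) blocks cyclin-dependent kinases and is the best known of these genes, while CDKN2B (p15) blocks the cyclin D kinases and is better known as a target of TGF-beta signalling. Human embryonic stem cells divide rapidly with a short G1 phase and hold p21 low while they are pluripotent. LPA is a phospholipid signal that acts on cell-surface receptors coupled to G proteins, and albumin carries it in serum.

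The promoters of the members with the largest LPA differences are shown because these genes were high on the same arrays. The 250 bases before the start site are given from RefSeq (GRCh38.p14), 5′ to 3′, with the GC box (GGGCGG on either strand) and the TATA box (TATAAA on either strand) in capitals.
CDKN1A chr6:36678464-36678713 (plus strand): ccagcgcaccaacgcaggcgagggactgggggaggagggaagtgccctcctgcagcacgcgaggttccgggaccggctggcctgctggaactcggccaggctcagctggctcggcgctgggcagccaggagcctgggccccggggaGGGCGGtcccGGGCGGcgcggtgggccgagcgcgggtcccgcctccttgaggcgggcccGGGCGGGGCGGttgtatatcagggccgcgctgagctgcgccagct
GDF15 chr19:18385908-18386157 (plus strand): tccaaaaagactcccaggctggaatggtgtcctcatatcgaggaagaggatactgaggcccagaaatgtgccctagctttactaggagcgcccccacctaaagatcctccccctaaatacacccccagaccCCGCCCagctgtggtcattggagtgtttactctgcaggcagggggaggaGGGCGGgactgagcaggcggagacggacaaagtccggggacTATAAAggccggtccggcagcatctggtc
SFN chr1:26862899-26863148 (plus strand): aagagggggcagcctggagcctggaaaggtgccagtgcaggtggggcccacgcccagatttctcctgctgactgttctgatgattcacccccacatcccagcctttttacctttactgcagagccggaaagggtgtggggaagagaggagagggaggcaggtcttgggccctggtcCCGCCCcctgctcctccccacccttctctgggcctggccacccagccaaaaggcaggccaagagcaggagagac
CDKN2B chr9:22009306-22009555 (minus strand): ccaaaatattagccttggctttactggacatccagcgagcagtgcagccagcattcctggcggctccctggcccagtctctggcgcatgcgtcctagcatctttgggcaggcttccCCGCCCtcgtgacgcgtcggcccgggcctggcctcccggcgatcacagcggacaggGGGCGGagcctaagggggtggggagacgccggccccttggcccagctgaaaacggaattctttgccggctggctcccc
The CDKN1A stretch held 4 GC boxes, of which the pair nearest the start site overlap by a base, and those of GDF15 and CDKN2B held 2 each and that of SFN 1. A GC box was present in 42.6% of the 35116 RefSeq promoters over the same 250 bases. GDF15 alone of the 6 genes had the TATA letters there, against 10.7% of all promoters. The p53 consensus decamer was searched on both strands in windows from 250 bases before to 50 bases after the start site. It was found in none of the 6 members' windows and in 6.63% of all such windows. At that share, finding none in 6 windows says little. Sequence outside the windows was not searched, so whether the members have p53 sites elsewhere was not tested. The listed start site of CDKN1A lies inside the gene, whose longer transcripts begin upstream of this stretch. That of CDKN2B lies just inside its gene, which on the minus strand begins at 22009313, so the last bases of its stretch belong to the gene. BAX lies on chromosome 19 and SESN1 on chromosome 6.

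The members were lower in E8, Albumin, CDL and hCDL than in LPA, LPA + Albumin and AlbuMAX. Levels below are log2 normalized intensities, on which a difference of 1 is a factor of 2, and the LPA coefficient is the log2 difference with LPA in a limma model of LPA, albumin and lipid mixture over the 6 arrays other than AlbuMAX. All 6 members rose with LPA at a limma adjusted p below 0.05, whereas 6.64% of all genes tested rose and 4.32% fell, 11% in either direction (530 and 345 genes, or 597 and 240 with cyclic loess scaling). Leaving out the Albumin array gave 138 and 19 genes, and leaving out the LPA + Albumin array 126 and 25. At least 2-fold rises with LPA were called for 4 members and for 2.31% of all genes. GDF15 and CDKN2B entered the test only through the arrays on which they were high, so a difference was built into their entry. The other 4 members were above background on at least 3 of the 4 arrays without LPA or AlbuMAX. The median LPA coefficient was 1.82 over the members and -0.03 over all genes. The members were chosen with earlier results of these data known, so their shares and this median describe them and are no test. For each member the 3 arrays of LPA, LPA + Albumin and AlbuMAX lay above the other 4, a pattern held by 14.7% of all genes. The LPA and LPA + Albumin arrays alone were above those 4 for all 6 members and for 17.8% of all genes.

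**Figure D1:**
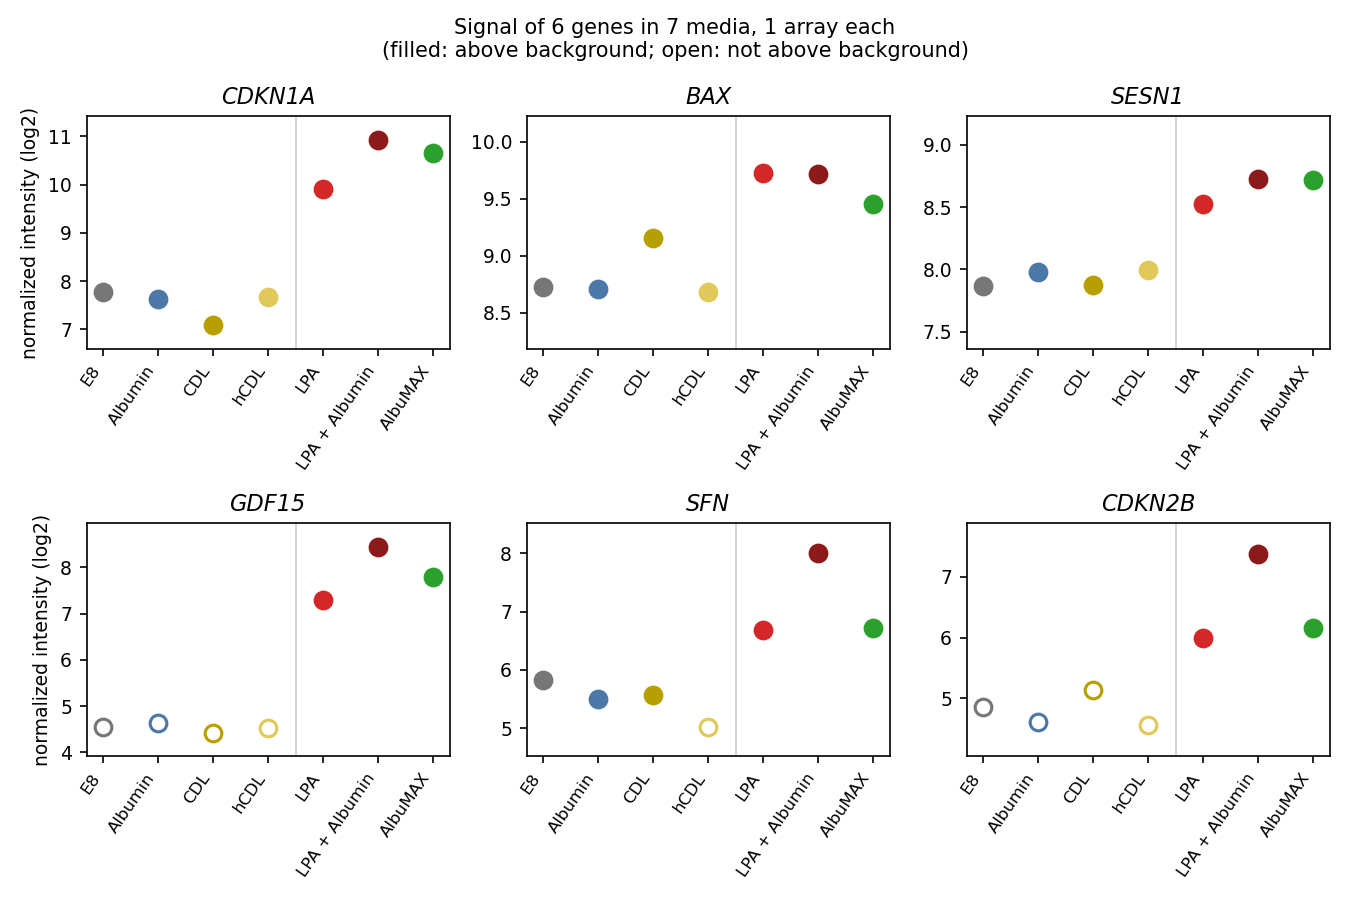
Normalized intensity (log2) of the probe representing each gene, by medium, with 1 array per medium; filled points were above background (detection p-value under 0.01) and open points were not. In every panel LPA, LPA + Albumin and AlbuMAX, to the right of the grey line, lie above the other 4 media; the vertical axes differ between panels.

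CDKN1A, the inhibitor of cyclin-dependent kinases, had levels of 7.77 in E8, 7.62 in Albumin, 7.10 in CDL, 7.67 in hCDL, 9.92 in LPA, 10.92 in LPA + Albumin and 10.66 in AlbuMAX. Before normalization its intensity was 289 in E8, 1058 in LPA, 2065 in LPA + Albumin and 1564 in AlbuMAX. The 4 lower media spanned 0.68, and the lowest of the 3 higher ones stood clear of them by more than that span. CDKN1A rose by 2.72 with LPA (SE 0.242, limma adjusted p = 5.78e-05), a factor of 6.58, and ranked 21 of 7982 by coefficient. Against E8 the LPA array was 4.42-fold higher, and against Albumin the LPA + Albumin array was 9.81-fold higher, so the difference was larger with albumin present. In CDL it was lower than in E8 by 0.68, the only member at least 1.5-fold lower there, as were 3.14% of all genes.

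SFN (stratifin) is an adaptor that holds mitotic kinases in the cytoplasm and is best known from stratified epithelium. Its levels were 5.83 in E8, 5.50 in Albumin, 5.57 in CDL, 5.03 in hCDL, 6.68 in LPA, 8.01 in LPA + Albumin and 6.72 in AlbuMAX. It was above background in every medium but hCDL. LPA and AlbuMAX differed by only 0.04, less than the 0.80 spanned by the 4 lower media, while LPA + Albumin stood above both. SFN rose by 1.68 with LPA (SE 0.339, limma adjusted p = 0.0101). That coefficient averages 0.85 for LPA minus E8 and 2.51 for LPA + Albumin minus Albumin. The call was lost when the Albumin array was left out (0.85, limma adjusted p = 0.244) and when the LPA + Albumin array was left out (limma adjusted p = 0.275). The keratins KRT5, KRT14 and KRT15, which define stratified epithelium and are the annotated genes in a list of 6 markers, were above background on none of the 7 arrays.

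CDKN2B was above background in LPA (5.99), LPA + Albumin (7.38) and AlbuMAX (6.16) and in none of the other 4 media, where its probe read 4.85 in E8, 4.61 in Albumin, 5.14 in CDL and 4.55 in hCDL. The differences below are therefore bounds, set against the lowest signal that was above background on the dim array. For CDKN2B the bound was at least 1.54-fold for LPA over E8, at least 4.62-fold for LPA + Albumin over Albumin, and at least 1.74-fold for AlbuMAX over E8. Over both LPA arrays against E8 and Albumin it rose at least 2.67-fold. The test (limma adjusted p = 0.00684) was of the LPA coefficient of 1.95, which uses the values not above background as they were. The 2.67-fold bound depends on the background correction and its offset. The LPA coefficient was 0.80 on the log2 scale without the correction and 1.21 with an offset of 50, both below that bound. As for SFN, LPA and AlbuMAX lay close together and LPA + Albumin stood apart. Here too the call was lost on leaving out Albumin (limma adjusted p = 0.165) or LPA + Albumin (limma adjusted p = 0.196).

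BAX, a pore-forming protein that permeabilises mitochondria during apoptosis, had levels of 8.73 in E8, 8.71 in Albumin, 9.16 in CDL, 8.68 in hCDL, 9.72 in LPA, 9.72 in LPA + Albumin and 9.45 in AlbuMAX. CDL stood above the other 3 lower media, and the gap from CDL to AlbuMAX was smaller than the 0.47 that those 4 spanned. BAX rose by 1.00 with LPA (SE 0.144, limma adjusted p = 0.00148). The paired differences were nearly equal, 0.99 for LPA minus E8 and 1.01 for LPA + Albumin minus Albumin, in contrast to the values of CDKN1A, SFN and CDKN2B.

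SESN1, a sestrin that restrains the growth kinase mTORC1 under stress, had levels of 7.86 in E8, 7.98 in Albumin, 7.88 in CDL, 7.99 in hCDL, 8.52 in LPA, 8.73 in LPA + Albumin and 8.72 in AlbuMAX. Its 4 lower media spanned 0.13, the narrowest span of the 6 members. SESN1 rose by 0.71 (SE 0.125, limma adjusted p = 0.0052), with 0.66 for LPA minus E8 and 0.75 for LPA + Albumin minus Albumin. AlbuMAX and LPA + Albumin differed by 0.01, within that span. On leaving out Albumin its limma adjusted p was 0.0900 and on leaving out LPA + Albumin its limma adjusted p was 0.101, and the call was lost in both cases.

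GDF15, a secreted cytokine of stressed cells that acts on a receptor in the hindbrain, was not above background in E8 (4.56), Albumin (4.65), CDL (4.43) or hCDL (4.54). It reached 7.29 in LPA, 8.45 in LPA + Albumin and 7.79 in AlbuMAX. The bounds for GDF15 were at least 3.80-fold for LPA over E8, at least 9.68-fold for LPA + Albumin over Albumin and at least 5.36-fold for AlbuMAX over E8. Over both LPA arrays against E8 and Albumin it rose at least 6.06-fold. The test (limma adjusted p = 4.45e-05) was of the LPA coefficient of 3.27, which uses the values not above background as they were. The 6.06-fold bound depends on the background correction and its offset. The LPA coefficient was 1.58 on the log2 scale without the correction and 2.21 with an offset of 50, both below that bound. The order of the 3 bright arrays, with LPA + Albumin highest and LPA lowest, was that of every other member but BAX.

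**Figure D2:**
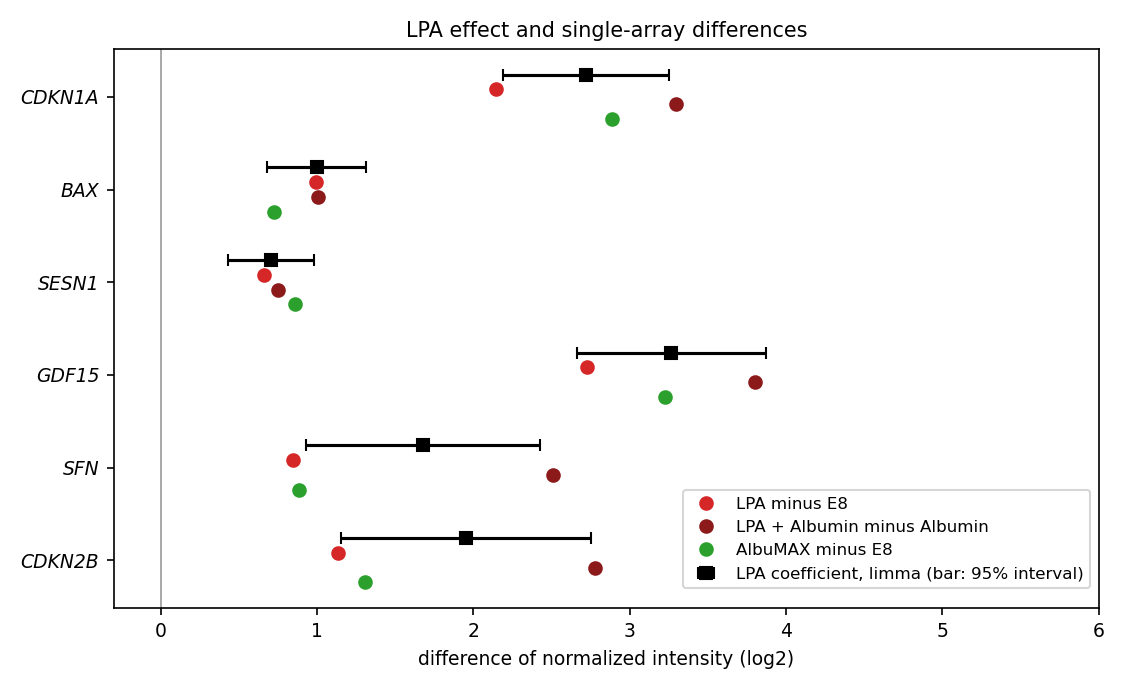
Black squares are LPA coefficients of the limma model with 95% intervals; circles are log2 differences between single arrays, namely LPA minus E8, LPA + Albumin minus Albumin, and AlbuMAX minus E8. The circles of BAX and SESN1 lie close together, while LPA + Albumin minus Albumin is the largest for CDKN1A, GDF15, SFN and CDKN2B; for GDF15 and CDKN2B the low side was not above background, so their values there are not folds.

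No member passed the test for albumin or for a lipid mixture. The albumin coefficient averages Albumin minus E8 and LPA + Albumin minus LPA, so it is not a test of albumin alone. None of the 6 members passed for albumin in limma, where 0.1% of all genes passed. At an unadjusted p under 0.05 stood 1 member, GDF15, and 6.23% of all genes, but 4 members when the E8 or the Albumin array was left out. None passed in limma for a lipid mixture, where 0% of all genes passed, and at an unadjusted p under 0.05 stood 0 members and 3.77% of all genes, but 4 members when the E8 array was left out. The albumin coefficients ran from -0.01 (BAX) to 0.63 (GDF15, where LPA + Albumin minus LPA was 1.16 and both E8 and Albumin were not above background), with a 95% interval of -0.33 to 0.30 for BAX and -0.11 to 0.96 for CDKN1A. The coefficients for a lipid mixture were -0.10 for CDKN1A, 0.19 for BAX, 0.09 for SESN1 and -0.12 for SFN, which was not above background in hCDL. Those of GDF15 and CDKN2B compare signals that were not above background. Albumin minus E8 was -0.15 for CDKN1A, -0.34 for SFN, -0.02 for BAX and 0.12 for SESN1. CDKN2B and GDF15 were not above background in either medium, so no difference between them was measured. No member was 1.5-fold higher than E8 in Albumin, CDL or hCDL, as 2.76%, 3.27% and 2.69% of all genes were, and none was 1.5-fold lower in Albumin (2.54% of all genes). SFN was lower by 0.80 in hCDL, where 2.09% of all genes were at least 1.5-fold lower, and its probe was not above background there.

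LPA with albumin gave higher levels than LPA alone for CDKN1A, GDF15, SFN and CDKN2B. BAX, whose LPA minus E8 (0.99) exceeded that of SFN (0.85), was not higher. LPA + Albumin minus LPA was 1.00 for CDKN1A, 1.16 for GDF15, 1.33 for SFN and 1.40 for CDKN2B, against 0.21 for SESN1 and -0.01 for BAX. All of the first 4 passed 1.5-fold, as did 4.37% of all genes. Among the 184 genes that rose at least 2-fold with LPA, 109 were also at least 1.5-fold higher in LPA + Albumin than in LPA, so many genes raised by LPA shared this feature. The LPA + Albumin array is part of the coefficient by which the 184 were chosen, so that share was partly built in. Each of these differences compares single arrays and has no test, and the same double difference is part of the error of the limma model.

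AlbuMAX was not in the model, and its differences from E8 have no replicate check. All 6 members were at least 1.5-fold higher in AlbuMAX than in E8, as were 7.69% of all genes. In LPA all 6 were so as well (6.46% of all genes), and in LPA + Albumin again all 6 (9.52%). These differences share the E8 array. Without background correction LPA minus E8 was 0.39 for SFN, 0.38 for CDKN2B and 0.51 for SESN1, under 1.5-fold, while CDKN1A, BAX and GDF15 stayed above it. AlbuMAX minus E8 was then under 1.5-fold for SFN (0.41) and CDKN2B (0.46) alone. None was 1.5-fold lower in LPA (4.2% of all genes), LPA + Albumin (7.02%) or AlbuMAX (5.76%). CDKN1A was 7.39-fold, SFN 1.84-fold, SESN1 1.81-fold and BAX 1.65-fold higher in AlbuMAX than in E8. AlbuMAX minus LPA + Albumin was -0.26 for CDKN1A, -0.26 for BAX, -0.01 for SESN1, -0.67 for GDF15, -1.29 for SFN and -1.22 for CDKN2B. SFN and CDKN2B in AlbuMAX were thus near their levels in LPA without albumin, at 0.04 and 0.17 above it. When AlbuMAX was added to the model as a further albumin medium, 0 members and 0 of all genes passed for LPA in limma (adjusted p of the members from 0.379 to 0.386), with 6 members and 1010 genes at an unadjusted p under 0.05.

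Several probes existed for CDKN1A, BAX and CDKN2B, and they did not all carry signal. The second CDKN1A probe was not above background on any array, with levels of 4.28 to 4.50. Of the 3 BAX probes, 1 was bright, 1 was above background in AlbuMAX alone (5.46) and 1 on no array. For CDKN2B the probe with the highest mean and a second one (4.55 in E8, 4.52 in Albumin, 4.49 in CDL, 4.42 in hCDL, 5.85 in LPA, 7.47 in LPA + Albumin and 6.06 in AlbuMAX) were above background on the same 3 arrays. The third CDKN2B probe was above background on none. When each probe was tested on its own, the second CDKN2B probe had an LPA coefficient of 2.12 (limma adjusted p = 0.00202) and the dim BAX probe 0.35 (limma adjusted p = 0.487). SESN1, GDF15 and SFN had 1 probe each.

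**Figure D3:**
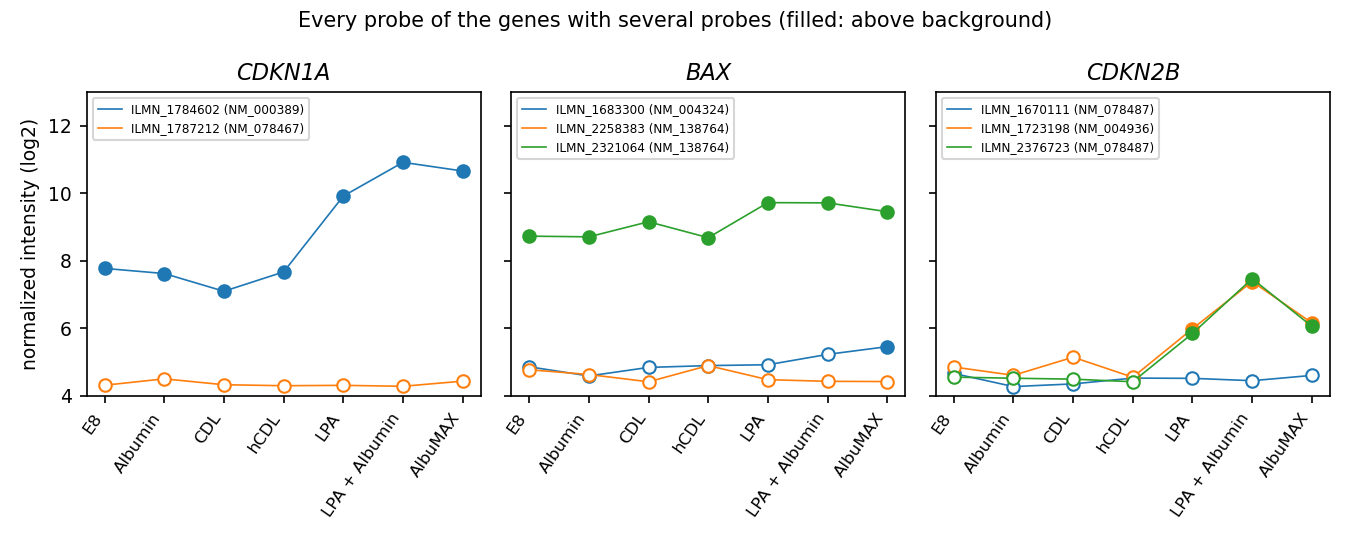
Normalized intensity (log2) of every probe of CDKN1A, BAX and CDKN2B in the 7 media; lines join the points of a probe and filled points were above background. The pair of CDKN2B probes that carried signal follow each other, the bright CDKN1A and BAX probes lie between 7.10 and 10.92, and the other probes of the 3 genes stay between 4.27 and 5.46 in all media.

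Other p53 targets moved with LPA in part. Of 28 further targets in a list of well-known ones, 19 were measured, of which 9 rose, 1 fell and 9 did not pass, against 6.64% of all genes rising. Their median coefficient was 0.45 (-0.03 over all genes). The list was chosen with earlier results of these data known, so its shares are a description. PHLDA3, an inhibitor of the kinase AKT, rose by 1.74 (limma adjusted p = 0.000205), ZMAT3, an RNA-binding zinc finger protein, by 1.61 and GADD45A, a growth arrest and DNA damage protein, by 1.45. PLK2, a polo-like kinase, rose at least 5.02-fold over E8 and Albumin, a bound because it was not above background in E8. It had signal above background with LPA in both cases but on only 1 of E8, Albumin, CDL and hCDL. Its tested coefficient was 2.66 (limma adjusted p = 5.78e-05). With an offset of 50 the PLK2 coefficient was 1.84 and without background correction 1.30, both below that bound. Without the Albumin array, which leaves LPA minus E8 alone, the coefficients were 1.56 for PHLDA3, 1.26 for ZMAT3, 0.97 for GADD45A and 2.37 for PLK2. GADD45A lost its call without an intensity trend in the limma prior (limma adjusted p = 0.0575). All 4 lost theirs with AlbuMAX added as an albumin medium (limma adjusted p = 0.379). MDM2 is unnamed on this platform annotation and was not analysed here. The count of rising targets was 5 on leaving out either the Albumin or the LPA + Albumin array. At least 1.5-fold above E8 were 6 of the 19 in LPA (6.46% of all genes), 10 in LPA + Albumin (9.52%) and 7 in AlbuMAX (7.69%). In Albumin it was 1 (2.76%), namely PLK2, whose E8 value was not above background, and in CDL (3.27%) and hCDL (2.69%) it was 0. At least 1.5-fold lower was 1 target in LPA + Albumin (7.02% of all genes) and 1 in AlbuMAX (5.76%).

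**Figure D4:**
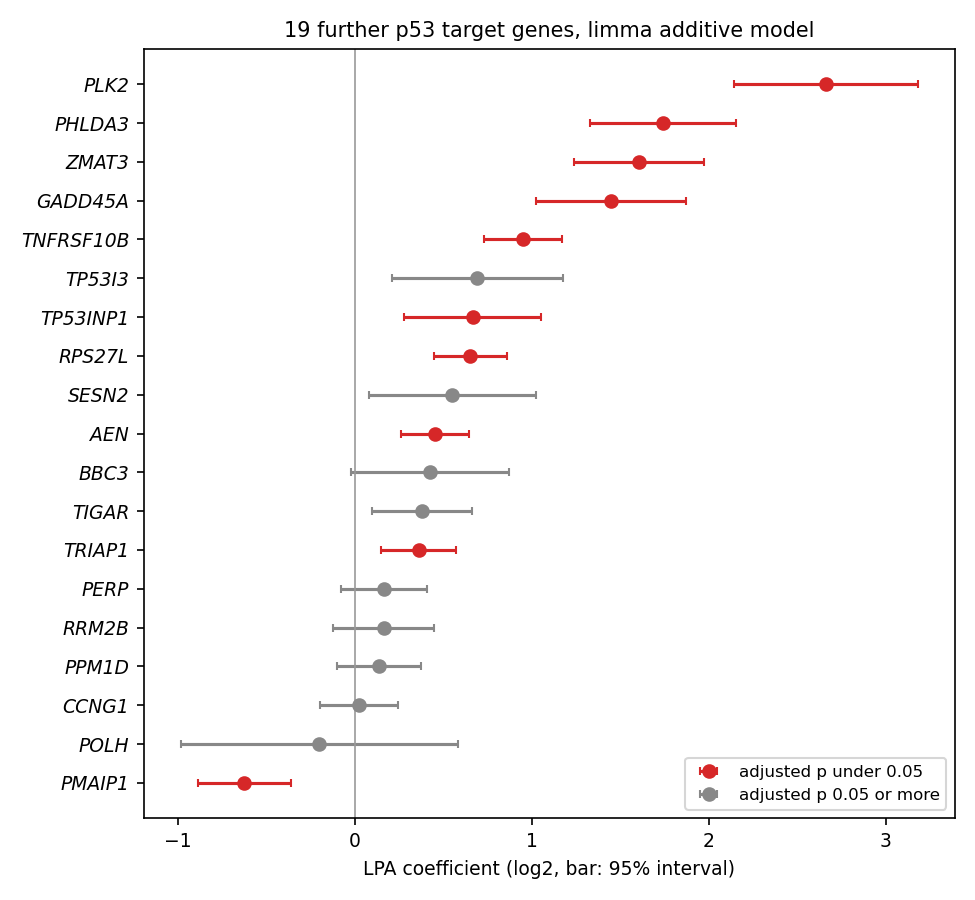
LPA coefficients (log2) of the 19 measured further p53 targets with 95% intervals from the limma model; red points passed at an adjusted p under 0.05. PLK2 leads the 9 that rose and PMAIP1 is the gene that fell.

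The genes that surround the members in the cell cycle and in apoptosis are read against the 11% of all genes that passed for LPA in either direction. These lists too were chosen with earlier results of these data known. Of 4 other inhibitors of cyclin-dependent kinases measured, CDKN1B (p27) fell by 0.48 (limma adjusted p = 0.0402) and 3 did not pass. CDKN2A, a neighbour of CDKN2B on the chromosome, had signal above background in LPA and LPA + Albumin alone. It was at least 1.17-fold higher there than in E8 and Albumin, and its LPA coefficient of 0.74 did not pass (limma adjusted p = 0.123). Of 7 measured genes of the G1 machinery, the D cyclins CCND1 (0.55) and CCND2 (0.28) rose, the latter at a limma adjusted p = 0.0458, and 5 did not pass. The calls of CCND2, CCNB1 and CHEK2 held in 7 of 17 alternatives each and that of CDKN1B in 8. In the list of G2 and mitosis, with 16 genes measured, 3 genes fell and 13 did not pass, against 4.32% of all genes falling: topoisomerase TOP2A by 0.50, the mitotic kinesin CENPE by 0.48 and cyclin CCNB1 by 0.33. Of 9 other BCL2 family genes measured, the survival gene BCL2L1 rose by 0.64 (limma adjusted p = 0.00389), PMAIP1 (NOXA), a p53 target that promotes apoptosis, fell by 0.63 (limma adjusted p = 0.00755), and 7 did not pass. BBC3 (PUMA), another such target, had a coefficient of 0.43 and did not pass. Of 5 measured relatives and regulators of p53, CHEK2 fell by 0.47 (limma adjusted p = 0.0435) and 4 did not pass.

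In the lists nearest to the remaining members, the picture was mixed as well. Of the other sestrins, SESN2 (0.55, limma adjusted p = 0.132) and SESN3 (-0.50, limma adjusted p = 0.162) did not pass. Of 8 measured genes of the integrated stress response the transcription factor ATF3 rose by 0.93 (limma adjusted p = 0.00983), asparagine synthetase ASNS rose by 0.32 (limma adjusted p = 0.0314), and 6 did not pass, ATF4 among them at -0.06. Of 8 listed TGF-beta targets, PMEPA1 was the only one measured, and it rose by 0.65 (limma adjusted p = 0.0145). None of the list genes named in these paragraphs other than PLK2, PHLDA3, ZMAT3 and GADD45A kept its call when the Albumin or the LPA + Albumin array was left out, and the same held for PODXL below. Those fits leave LPA minus E8 alone, so a kept call there is no check.

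The genes whose course over the 7 media was nearest to each member, by the mean absolute difference of log2 levels after each gene was centred on its own mean, are given as a description. For GDF15 and CDKN2B, 4 of the 7 values behind each distance were not above background. Among the nearest genes outside the members, MYL7 and LRRK1 were above background on 3 of the 7 arrays, CAV2 on 4 and ACTA2 on 5. The rest were above it on 6 or 7. For CDKN1A the nearest genes were ACTA2 (0.17), NOX4 (0.19) and MYL7 (0.20), and for GDF15 they were ACTA2 (0.09), CD44 (0.16) and CAV2 (0.18). SFN and CDKN2B were each the second nearest gene of the other, at 0.16, and both had AHNAK2 as the nearest (0.10 and 0.11). GADD45A was the third nearest of SFN (0.19) and IFFO2 that of CDKN2B (0.18). For BAX the nearest were SCARA3 (0.09), ITGA2 (0.11) and LRRK1 (0.11), and for SESN1 they were FAXC (0.04), PLOD1 (0.05) and PAM (0.05). Between members the smallest distances after SFN and CDKN2B were those of BAX to SESN1 (0.19) and of CDKN1A to GDF15 (0.23).

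The cells carried the transcripts of pluripotent stem cells on every array. POU5F1, NANOG, LIN28A, SALL4 and PODXL, the 5 measured of 10 listed markers, were above background in all 7 media, and their summed linear level ran from 24266 to 26426 on the 4 arrays without LPA or AlbuMAX and from 26983 to 27953 on the other 3. Without PODXL the sums ran the other way, from 16996 to 18309 on the 4 arrays and from 15718 to 16847 on the other 3. PODXL, a surface sialomucin, rose by 0.55 with LPA (limma adjusted p = 0.00538), while POU5F1 (-0.17) and NANOG (-0.21) did not pass. Of the listed markers of mesendoderm, neuroectoderm and trophoblast, 1 of each list had signal above background on any array (FOXA2, NEUROG2 and CGA), with linear levels of at most 50.2. Of the fibroblast markers THY1, which stem cells also express, was above background, at 2289 to 2926 without LPA or AlbuMAX and 2643 to 2691 on the other 3 arrays, and LUM and DCN were not above background on any. Whether more transcript per cell or more cells with the transcript lay behind a difference cannot be told apart in these bulk samples. Between 34.6% (E8) and 37.3% (hCDL) of probes were above background per array.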

How the data were processed

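Biotin-labelled cRNA of 7 media was hybridised to Illumina bead arrays, 1 per medium. The deposited table gives an intensity and a detection p-value per probe, which the name of the deposited table calls unnormalized; the labels do not state which software wrote it. A second deposited table holds the submitters' processed intensity values and served as an alternative.

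Intensities were background-corrected by normexp with controls inferred from the detection p-values (offset 16), quantile normalized and log2 transformed (neqc, limma 3.58.1, R 4.3.3). Symbols came from the platform annotation (19221 probes with 1 gene, 3 with several, 14645 unnamed here). A probe entered with a detection p-value under 0.01 on 1 or more arrays; of a gene's entered probes the brightest by mean stood for it. LPA, albumin and lipid mixture (CDL or hCDL) were fitted additively on 6 arrays (2 residual degrees of freedom) with an intensity trend in the prior and Benjamini-Hochberg adjustment over 7982 genes, called at 0.05. The residual consists of the LPA by albumin interaction and the CDL to hCDL difference, not of spread between cultures. The p-values set a coefficient against that residual after shrinkage toward a prior shared by all genes (10.9 total degrees of freedom). The residual standard deviation was 0.50 for CDKN1A, 0.65 for SFN and 0.65 for CDKN2B, against SEs of 0.242, 0.339 and 0.364 for the LPA coefficient. It exceeded the SE for BAX and GDF15 too, but not for SESN1 (0.07 against 0.125). The steps were tested on simulated data with additive effects and independent noise. That setting has no LPA by albumin interaction, so it is no check of the calls made here.

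Bounds (at least N-fold) raise each dim value to the array's lowest signal that passed the detection limit. Named were all members with every probe, per list up to 4 genes that passed with the largest coefficients (where none passed, up to 2 with the smallest p), the 3 nearest genes per member, and POU5F1, NANOG, SOX2 and MDM2, of which SOX2 and MDM2 are unnamed here; a further gene of this rule is not reported here. CDKN2A, BBC3 and ATF4 were chosen after their values were seen, as were the alternatives for list genes and the marker sum without PODXL. The members and gene lists were chosen with earlier results of these data known. Promoters are those of RefSeq (GRCh38.p14), and all 6 members matched.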

Additional observations from a re-analysis of the deposited data

How the results depend on the processing

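The direction of the LPA coefficient held for all 6 members under each of the alternatives that gave a value; of 99 values, 83 kept their call and 16 lost it. Without an intensity trend in the limma prior, 2 members passed (CDKN1A and GDF15), with 4 of the further p53 targets rising, 0 G2 and mitosis genes falling (4 at an unadjusted p under 0.05), 162 genes in all for LPA, and 0 for albumin (524 unadjusted). With AlbuMAX added as an albumin medium, 0 members, 0 of the p53 targets, 0 of the G2 and mitosis genes and 0 of all genes passed for LPA in limma (6, 8, 3 and 1010 at an unadjusted p under 0.05). With genes above background on all 6 arrays only, 3 members were tested and 3 passed. Without a filter on dim probes 512 genes passed for LPA (363 rose and 149 fell). Leaving out each array in turn gave 3 to 6 members, 5 to 10 p53 targets, 0 to 4 G2 and mitosis genes and 151 to 919 genes for LPA, 6 to 21 genes for albumin and 0 to 20 for a lipid mixture. Without the Albumin array and without the LPA + Albumin array CDKN1A, GDF15 and BAX kept their calls. These fits leave LPA minus E8, 1 array against 1, as the LPA coefficient, and their error comes from CDL against hCDL and the prior, so a kept call there is no check of the LPA difference.

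Without background correction the LPA coefficients were smaller for the dim genes: 1.58 for GDF15, 0.80 for CDKN2B and 0.88 for SFN, against 2.30 for CDKN1A and 0.87 for BAX, and each still passed. The submitters' values gave 1.58, 0.80, 0.88, 2.30 and 0.86 in the same order. With an offset of 50, CDKN2B was at 1.21. The mean of the probes gave 0.67 for BAX. The albumin coefficient of BAX turned positive with median centring (0.081), with the mean of the probes (0.00198) and with AlbuMAX added (0.20). Leaving out each array in turn, the albumin coefficient ran from -0.15 to 1.00 for CDKN1A, -0.34 to 1.33 for SFN and -0.25 to 1.40 for CDKN2B. No paired analysis was possible because each medium has 1 array. The precision of SFN, CDKN2B and GDF15 is limited by signal near background in the low media.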
